A study of Homo sapiens with 12 samples.

Results

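The genes described here are those of the response to low oxygen and of glycolysis, measured in breast cancer cells after protein kinase C δ (PKCδ), the kinase that PRKCD encodes, was lowered by siRNA. Of 46 listed genes, 42 passed the rule for being measured, which asked for a probe detected at p under 0.01 on at least 3 of the 12 arrays, and they stand among 11459 genes that passed it in all. CA9, SLC16A1 and SLC16A3 had no probe in the annotation used and were not analysed here, and the probe of PDK1 was detected on 0 arrays. The 42 fall into 3 subunits of the hypoxia-inducible factor (HIF), 17 other HIF targets and 22 genes of glycolysis. Total RNA of the established lines MDA-MB-468 and BT-549, both basal-like breast cancer cells, was read on Illumina Human HT-12 v4 BeadChips, with 3 arrays for each line and siRNA, either siPRKCD or a control (siControl). All groups were transfected. Both lines were kept in medium with sodium pyruvate, and that of BT-549 cells also held insulin, so line and medium cannot be told apart wherever the lines are compared. No label or method names a low-oxygen group, and the sources used here give neither the oxygen level nor the glucose content of the medium. The study looked for genes that govern the survival of these cells, and here the module is read in the same arrays. In that study a PKCδ siRNA served to induce apoptosis before expression was read, and no second PKCδ siRNA is described. The part of cell death in the results was not tested. Each line stands for 1 tumour, and siRNA lowers its target without removing it.

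HIF is a pair of proteins, an oxygen-sensitive subunit such as HIF-1α (gene HIF1A) or HIF-2α (gene EPAS1) and the stable partner HIF-1β (gene ARNT). When oxygen is plentiful, prolyl hydroxylases (EGLN1, EGLN3) mark the sensitive subunit for breakdown, so its activity is set largely at the protein and can change while its mRNA does not. When oxygen falls, the pair binds short motifs with the core ACGTG or GCGTG and raises glucose transporters, glycolytic enzymes and secreted factors such as VEGFA and ADM. Many of these genes also answer to other signals, among them nutrient stress and growth factor signalling, and many tumour cells run glycolysis at a high rate when oxygen is present.

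The stretches before the start sites of 5 members show how the motif lies in the genes with the largest log2 fold changes between siPRKCD and siControl in either line. They are the 250 bases upstream of the start that RefSeq gives (GRCh38.p14), read 5′ to 3′ on the strand of the gene, with each ACGTG or GCGTG, on either strand (CACGT and CACGC on the other), in capitals and overlapping matches merged. The windows lie at chr11:10304823-10305072 (plus strand, ADM), chr19:8363905-8364154 (plus, ANGPTL4), chr10:72273674-72273923 (plus, DDIT4), chr5:132227092-132227341 (minus, P4HA2) and chr3:48556804-48557053 (minus, PFKFB4).
ADM: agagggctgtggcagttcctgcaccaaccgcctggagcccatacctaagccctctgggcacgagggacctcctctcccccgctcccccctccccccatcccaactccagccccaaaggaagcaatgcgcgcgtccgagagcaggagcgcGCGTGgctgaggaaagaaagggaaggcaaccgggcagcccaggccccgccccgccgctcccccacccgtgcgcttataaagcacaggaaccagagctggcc
ANGPTL4: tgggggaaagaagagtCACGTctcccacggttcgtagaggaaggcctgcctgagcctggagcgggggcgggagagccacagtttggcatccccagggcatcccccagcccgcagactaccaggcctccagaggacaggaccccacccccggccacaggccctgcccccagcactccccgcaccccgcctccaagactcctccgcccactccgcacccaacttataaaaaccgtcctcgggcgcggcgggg
DDIT4: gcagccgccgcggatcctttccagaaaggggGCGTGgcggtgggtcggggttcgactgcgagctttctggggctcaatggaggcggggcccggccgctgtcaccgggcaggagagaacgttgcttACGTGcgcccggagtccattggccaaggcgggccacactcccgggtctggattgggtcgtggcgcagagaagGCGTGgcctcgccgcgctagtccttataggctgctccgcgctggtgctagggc
P4HA2: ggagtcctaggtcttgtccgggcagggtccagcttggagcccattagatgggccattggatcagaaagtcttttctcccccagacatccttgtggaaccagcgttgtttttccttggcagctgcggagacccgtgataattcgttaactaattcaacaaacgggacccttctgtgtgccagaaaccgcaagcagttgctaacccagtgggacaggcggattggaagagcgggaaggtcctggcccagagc
PFKFB4: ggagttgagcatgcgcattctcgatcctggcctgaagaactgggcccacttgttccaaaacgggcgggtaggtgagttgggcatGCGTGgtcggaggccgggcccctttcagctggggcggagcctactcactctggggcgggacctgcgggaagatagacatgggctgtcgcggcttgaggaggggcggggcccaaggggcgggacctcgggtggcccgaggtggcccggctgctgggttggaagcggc
The DDIT4 window held 3 matches, which began 219, 125 and 53 bases before the start. The windows of ADM, ANGPTL4 and PFKFB4 held 1 match each, 101, 234 and 166 bases before it. The P4HA2 window held 0, which says only that these letters do not occur in this window. Over all RefSeq windows of this length in the table, 15172 of 35116 (43.2%) held at least 1 match, against 39 of 63 windows (61.9%) of the measured members, and 38 of the 42 members had a window. The match is short and common, so it is given as a description of the sequence.

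Between 15616 and 17724 of 47323 probes were detected per array, and all 3 BT-549 siPRKCD arrays (15616 to 16595) lay below all 3 BT-549 siControl arrays (16640 to 17263), a difference whose part in the BT-549 results was not tested. Arrays of the same group correlated with each other at 0.987 to 0.997. PRKCD mRNA fell with siPRKCD in both lines. Its log2 signal went from 9.03 ± 0.19 (SD, n = 3) to 7.32 ± 0.14 in MDA-MB-468 cells (log2 fold change -1.72, SE 0.11, limma adjusted p = 6.3e-08) and from 7.73 ± 0.03 to 6.86 ± 0.17 in BT-549 cells (-0.87, SE 0.11, adjusted p = 5.3e-05), where it was detected on 1 of the 3 siPRKCD arrays. The labels of the lines were set against cell type markers. Of 12 epithelial markers, 11 were detected on all 3 siControl arrays of MDA-MB-468 cells and 1, CDH1, on those of BT-549 cells, while 11 mesenchymal markers were detected in BT-549 cells and 3 in MDA-MB-468 cells. With siPRKCD the summed signal of the epithelial markers in MDA-MB-468 cells was 20660 to 24630 against 26180 to 28630 with siControl. That of the mesenchymal markers in BT-549 cells was 35020 to 38810 against 52530 to 54270. The part of these shifts in the results was not tested. In such bulk RNA, fewer cells of a kind and less RNA per cell cannot be told apart.

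In control cells the module differed widely between the lines, and most of its genes were higher in BT-549 cells. Of the 42 members, 34 passed the test (limma, adjusted p under 0.05 by Benjamini-Hochberg over 11459 genes), 28 higher and 6 lower in BT-549 cells, or 81% of the members, where 62.3% of all genes passed (32.6% higher, 29.7% lower). The median difference on the log2 scale, BT-549 minus MDA-MB-468, was 0.70 over the 22 glycolysis genes and 0.80 over the 17 other HIF targets, against 0.02 over all genes. Of the glycolysis genes 15 were higher and 3 lower, and of the other HIF targets 11 were higher and 3 lower. The groups of 3 arrays did not overlap for 35 members, 29 higher and 6 lower, where 68.6% of all genes did not overlap (35.9% higher, 32.7% lower). Levels of different genes are not set against each other here, since each is read by its own probe.

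**Figure D1:**
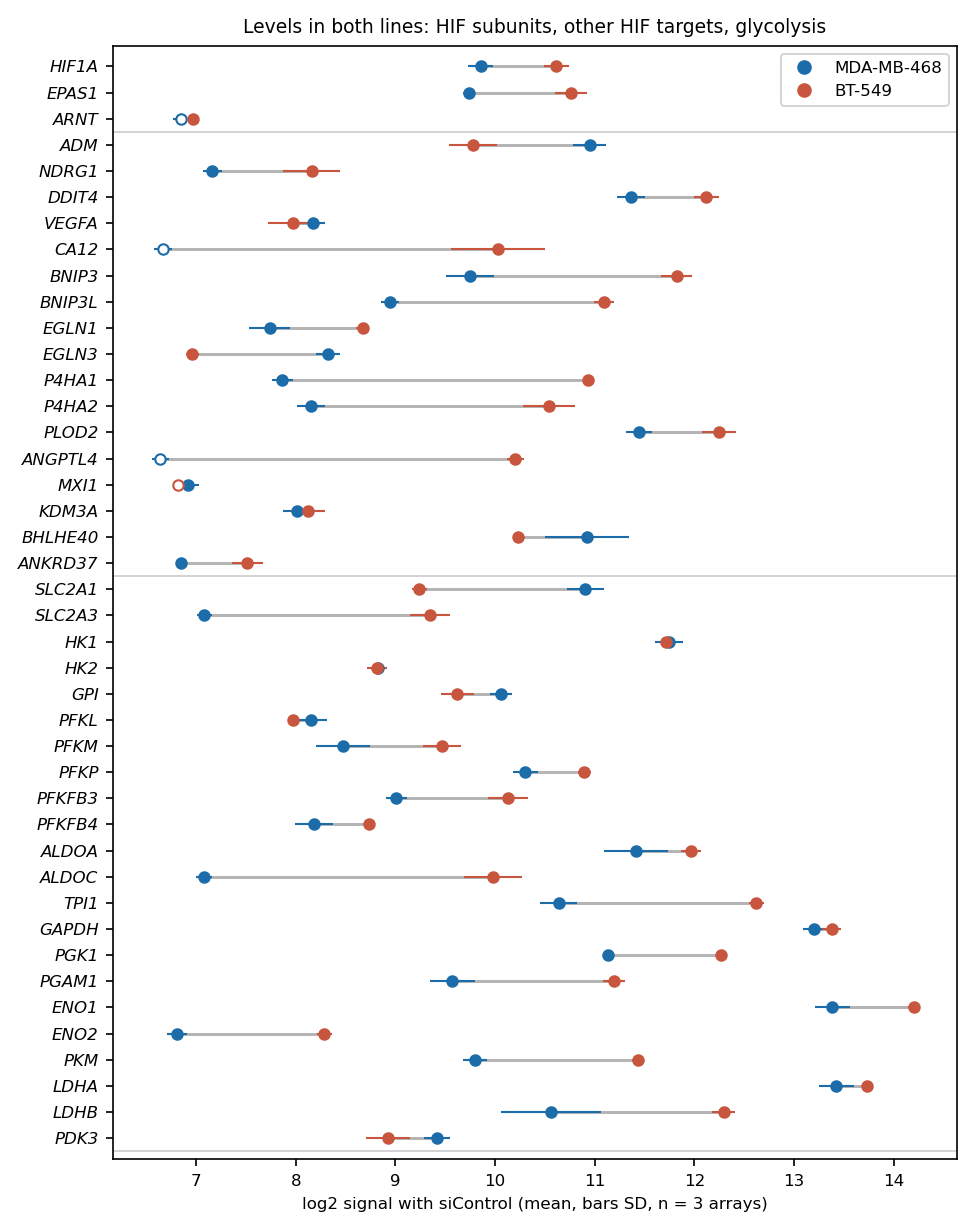
Log2 signal of each measured member in siControl cells of MDA-MB-468 (blue) and BT-549 (red), as means of 3 arrays with bars for the SD; open points mark a probe detected on 0 of the 3 arrays, and lines divide HIF subunits, other HIF targets and glycolysis genes. Most red points lie to the right of the blue ones, by more than 2 on the log2 scale for ALDOC, P4HA1, P4HA2, SLC2A3, BNIP3L and BNIP3 (open points give only a bound), while SLC2A1, EGLN3 and ADM lie furthest to the left.

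Both oxygen-sensitive subunits were higher in BT-549 cells. HIF1A stood at 10.61 ± 0.12 against 9.86 ± 0.12 (SD, n = 3 each; difference 0.75, SE 0.13, adjusted p = 1e-04), and EPAS1 at 10.76 ± 0.16 against 9.74 ± 0.06 (1.02, SE 0.11, adjusted p = 8.8e-07). ARNT was close to background, with its probe detected on 0 of 3 siControl arrays of MDA-MB-468 cells and on 3 of 3 of BT-549 cells, and did not pass (adjusted p = 0.29). The hydroxylases that act on HIF went opposite ways, EGLN1 being higher (difference 0.93) and EGLN3 lower (-1.36, adjusted p = 1.9e-09) in BT-549 cells.

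Among the other targets, the secreted lipase inhibitor gene ANGPTL4 and CA12, a carbonic anhydrase of the cell surface, differed most by their main probes. Those probes were not detected on any MDA-MB-468 array, so the difference they give is a lower bound, at least 9.78-fold for the ANGPTL4 probe (adjusted p = 1.1e-13) and at least 8.66-fold for that of CA12 (1.7e-09). The bound sets the mean of the BT-549 arrays against the lowest signal that counted as detected on the MDA-MB-468 arrays. The bound does not hold for ANGPTL4 as a gene, since a second probe was detected on all 12 arrays and so in both lines. It gave a difference of 0.48 on the log2 scale (adjusted p over all probes 0.0014), and the remaining one, detected on 6 arrays, gave 0.08 (0.55). A second CA12 probe, detected on 6 arrays, gave 1.66 (1.1e-07), against 3.36 by the main probe.

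The catalytic subunits of collagen prolyl 4-hydroxylase, which hydroxylates collagen so that its triple helix is stable, were P4HA1 (10.93 ± 0.04 against 7.87 ± 0.11, difference 3.06, SE 0.11, adjusted p = 4.8e-13) and P4HA2 (10.54 ± 0.26 against 8.15 ± 0.14, difference 2.39, SE 0.20, adjusted p = 3.3e-08), both higher in BT-549 cells. A second P4HA1 probe, detected on 3 arrays, gave only 0.27 (adjusted p over all probes 0.011). PLOD2, a lysyl hydroxylase of collagen, was higher by 0.80. The receptors of mitophagy BNIP3L (difference 2.15, SE 0.10, adjusted p = 1e-11) and BNIP3 (2.08, adjusted p = 1.1e-09) were higher as well, as were DDIT4 (0.76), NDRG1 (0.997) and ANKRD37 (0.66). ADM, which encodes the vasodilator peptide adrenomedullin, was lower in BT-549 cells by 1.17 (adjusted p = 4.5e-07), as was the transcriptional repressor gene BHLHE40 (-0.70). VEGFA, MXI1 and KDM3A did not pass, and the 95% interval of the VEGFA difference was -0.52 to 0.14.

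Within glycolysis the glucose transporters went opposite ways. SLC2A1, the transporter GLUT1, was 3.18-fold lower in BT-549 cells (9.24 ± 0.08 against 10.91 ± 0.19, log2 difference -1.67, SE 0.10, adjusted p = 4.8e-10), whereas SLC2A3, the high-affinity transporter GLUT3, was 4.80-fold higher (9.35 ± 0.20 against 7.08 ± 0.07, 2.26, SE 0.15, adjusted p = 1.1e-09). The largest difference within glycolysis was that of ALDOC, an aldolase best known from brain, at 9.98 ± 0.29 against 7.08 ± 0.08 (2.90, SE 0.17, adjusted p = 3.8e-10). TPI1, the triose phosphate isomerase, stood at 12.62 ± 0.07 against 10.64 ± 0.19 (1.98, SE 0.12), and LDHB, a lactate dehydrogenase subunit, at 12.29 ± 0.12 against 10.56 ± 0.50 (1.73, SE 0.25, adjusted p = 1.2e-05). The later steps PGK1, PGAM1, ENO1, ENO2 and PKM were all higher in BT-549 cells, by 0.82 to 1.64. The hexokinases HK1 (-0.03) and HK2 (-0.01) and the enzyme GAPDH (0.17) did not pass, with 95% intervals of -0.31 to 0.25, -0.32 to 0.30 and -0.05 to 0.40. PFKL did not pass either (-0.18, adjusted p = 0.18). PFKM (0.996), PFKP (0.59), PFKFB3 (1.12), PFKFB4 (0.55), ALDOA (0.56) and LDHA (0.30) were higher in BT-549 cells by their main probes. A second PFKFB3 probe gave 0.22 and did not pass (adjusted p over all probes 0.12). GPI was lower by 0.44. PDK3, a kinase that inhibits pyruvate dehydrogenase, was lower by 0.49 by its main probe, but another probe gave 0.69 in the other direction. The probes of PGK1, LDHA, TPI1, ENO1, PKM and GAPDH may also read transcribed copies of these genes, SLC2A3 has the close relative SLC2A14 and PGAM1 the close relative PGAM4, so these levels are uncertain.

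PKCδ siRNA moved a minority of the module in either line, and the direction differed from gene to gene. In MDA-MB-468 cells 7 of the 42 members passed, 4 higher and 3 lower, or 16.7%, where 26.1% of all genes passed (12.4% higher, 13.7% lower). With the replicate number, taken to pair the arrays of this line, as a block, 11 passed (4 higher, 7 lower), and 32.2% of all genes passed. The 4 added were NDRG1, BHLHE40, PFKL and PGAM1, all lower. In BT-549 cells 13 passed, 9 higher and 4 lower, or 31%, where 26.4% of all genes passed (11.6% higher, 14.9% lower). The median log2 fold change of the members was 0.00 in MDA-MB-468 cells and -0.05 in BT-549 cells, against 0.00 and -0.01 over all genes. By list, 3 glycolysis genes were higher and 0 lower in MDA-MB-468 cells (6 higher and 2 lower at an unadjusted p under 0.05 in limma), and 5 were higher and 2 lower in BT-549 cells. The share of all genes at that unadjusted threshold is not given. Unadjusted counts here and below therefore only qualify the counts beside them and are no trait of the module. Of the other HIF targets 1 was higher and 3 were lower in MDA-MB-468 cells, and 4 were higher and 2 lower in BT-549 cells. ADM and PFKFB3 were higher in both lines (4.56% of all genes) and P4HA2 was lower in both (5.67% of all genes). Of the other members 4 passed only in MDA-MB-468 cells, 10 only in BT-549 cells and 25 in neither. The share of all genes that passed in a single line is not given here, so these counts are no trait of the module. In total 26.1% of all genes passed in MDA-MB-468 cells and 26.4% in BT-549 cells. The groups of arrays did not overlap for 7 members higher and 5 lower in MDA-MB-468 cells, where 38.9% of all genes did not overlap (19.3% higher, 19.7% lower), and for 12 higher and 9 lower in BT-549 cells, where 41% did not (19% higher, 22% lower). With 3 arrays a group, the smallest p of an exact two-sided permutation test is 0.10.

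**Figure D2:**
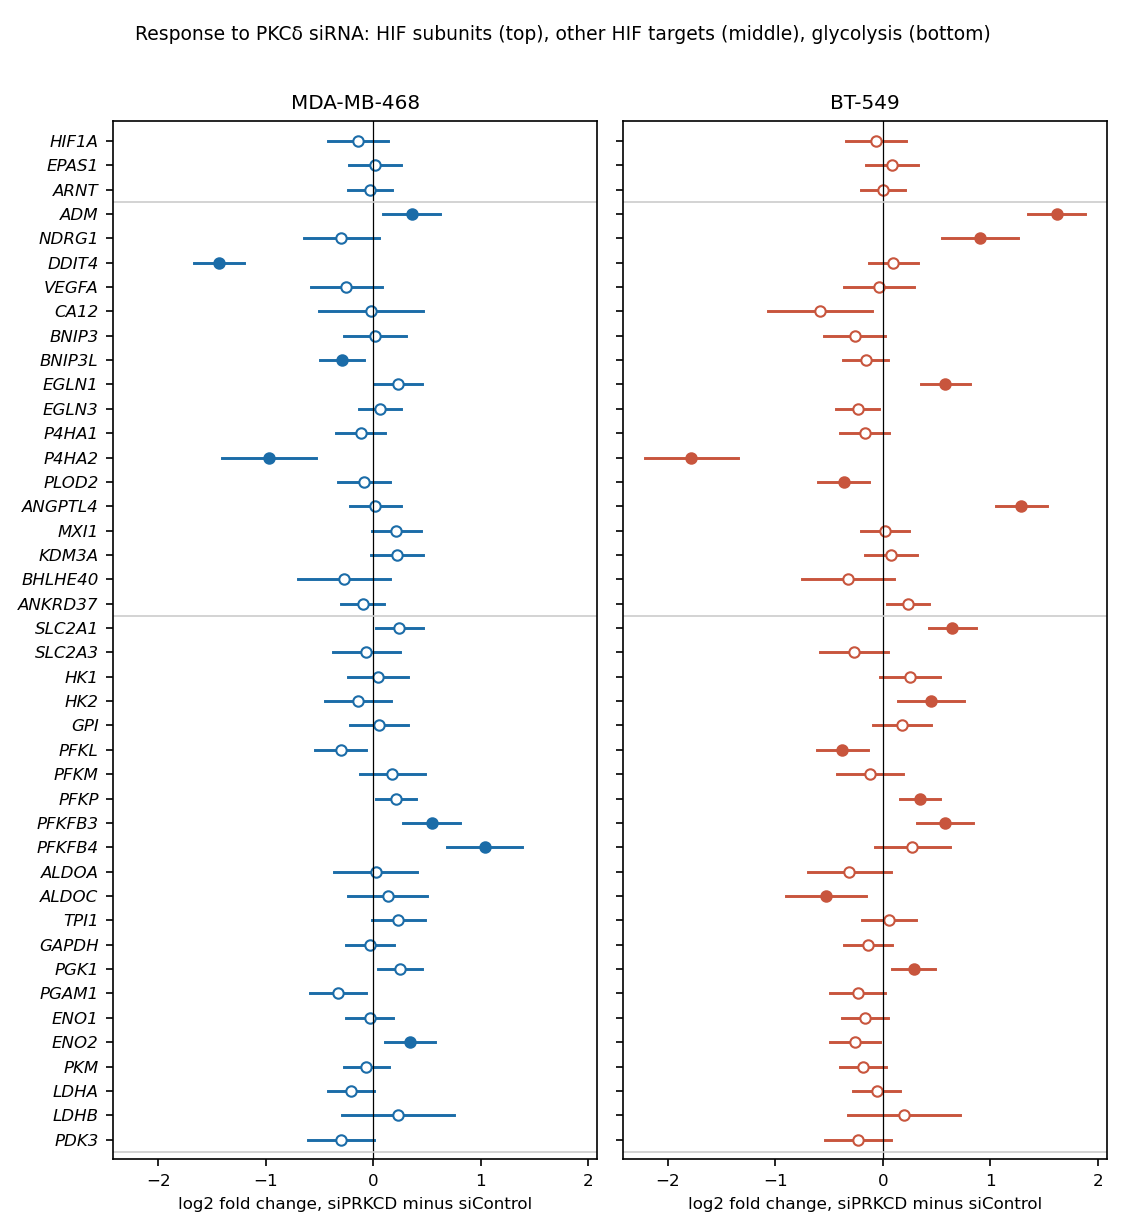
Log2 fold change of each measured member, siPRKCD minus siControl, in MDA-MB-468 (left) and BT-549 (right), with bars for the 95% interval; filled points passed the test and open points did not. The bars of the 3 HIF subunits include 0 in both lines, DDIT4 and P4HA2 lie furthest to the left in MDA-MB-468 cells, and ADM, ANGPTL4 and NDRG1 furthest to the right in BT-549 cells.

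The mRNAs of HIF itself did not pass in either line. HIF1A had log2 fold changes of -0.14 (95% interval -0.42 to 0.14) and -0.06 (-0.34 to 0.22) in MDA-MB-468 and BT-549 cells, and EPAS1 of 0.01 (-0.23 to 0.26) and 0.08 (-0.16 to 0.33). For the 3 subunits 0 of the 6 tests had an unadjusted p under 0.05 in limma. The proteins, at which oxygen acts, were not measured on these arrays.

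EGLN1, the main hydroxylase that marks HIF-α for breakdown and itself a HIF target, rose in BT-549 cells. Its log2 signals there were 8.60, 8.68 and 8.73 with siControl and 9.34, 9.29 and 9.12 with siPRKCD, so the groups did not overlap (log2 fold change 0.58, SE 0.11, adjusted p = 8.2e-04). In MDA-MB-468 cells they were 7.65, 7.59 and 7.97 against 7.97, 8.04 and 7.89, which overlap (0.23, adjusted p = 0.13), and the responses did not pass the test of their difference (0.35, adjusted p = 0.16). EGLN3 did not pass in either line, and in BT-549 cells with siPRKCD its probe was detected on 0 arrays.

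Among the secreted factors ADM responded in both lines, and more in BT-549 cells. The BT-549 arrays gave 9.53, 10.01 and 9.79 with siControl and 11.50, 11.40 and 11.28 with siPRKCD, a rise of 3.07-fold (log2 1.62, SE 0.12, adjusted p = 1e-06). The MDA-MB-468 arrays gave 11.08, 11.00 and 10.76 against 11.20, 11.45 and 11.27 (0.36, SE 0.12, adjusted p = 0.044). ADM thus started lower in BT-549 cells, and with siPRKCD it read 11.39 ± 0.11 there and 11.31 ± 0.13 in MDA-MB-468 cells (SD, n = 3). The difference of the responses was 1.26 (SE 0.18, adjusted p = 3e-04). The call in MDA-MB-468 cells was lost without any 1 of its siPRKCD arrays, its siControl array 2 or 3 or the BT-549 siControl array 3 (adjusted p 0.05 to 0.17).

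ANGPTL4 rose in BT-549 cells. Its signals there were 10.30, 10.13 and 10.18 with siControl and 11.68, 11.57 and 11.21 with siPRKCD (log2 fold change 1.29, SE 0.11, adjusted p = 2.3e-06), with every siPRKCD array above every siControl array. A second probe detected on all 12 arrays rose too, by 0.55 (adjusted p over all probes 0.0024), and the remaining one gave 0.27 (0.08). On the MDA-MB-468 arrays the main probe read 6.55 to 6.72, at background in both groups, and the second probe gave 0.04 (adjusted p over all probes 0.85). VEGFA, the growth factor of blood vessels, did not pass in either line (-0.25 and -0.04), with 95% intervals of -0.58 to 0.08 and -0.36 to 0.29.

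**Figure D3:**
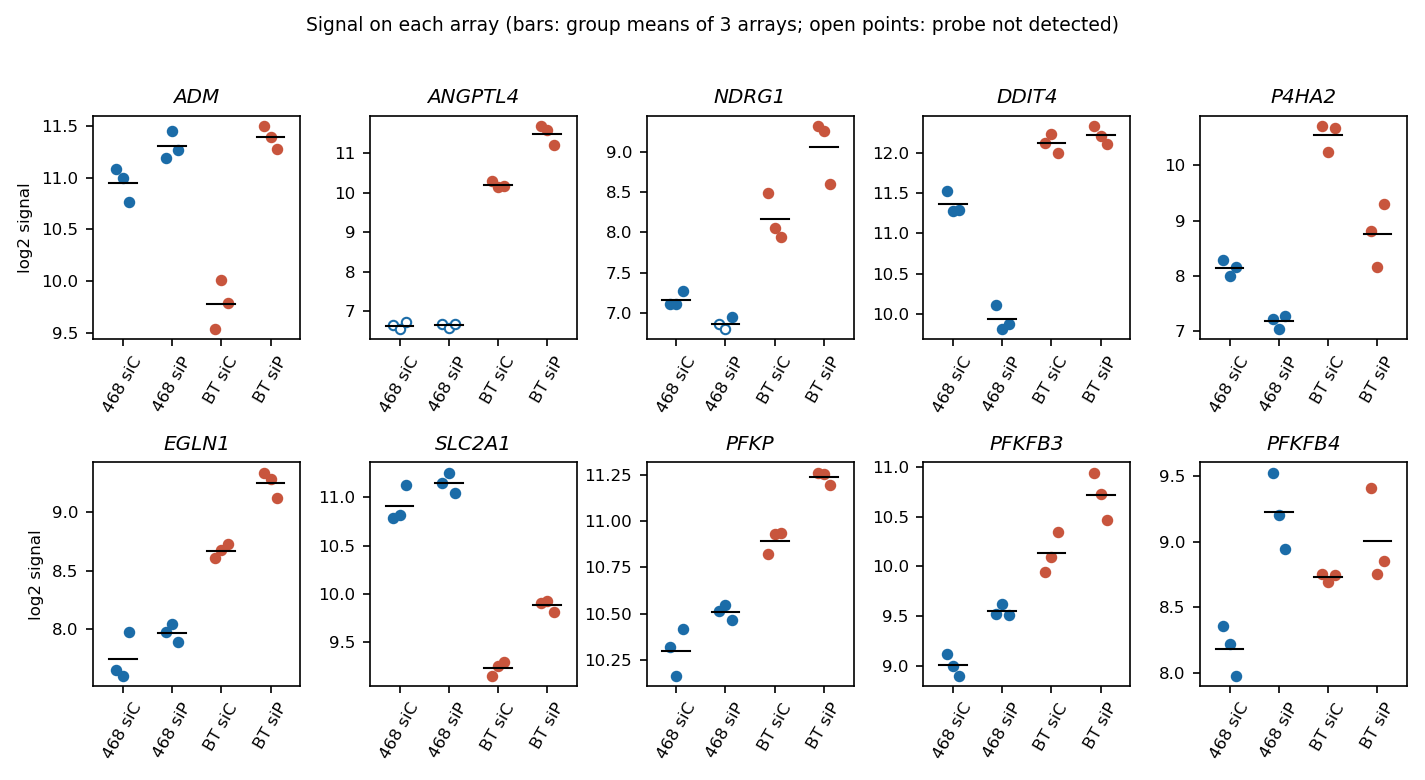
Log2 signal on each array of the 10 members with the smallest adjusted p in either knockdown comparison, by group (blue, MDA-MB-468; red, BT-549; siC, siControl; siP, siPRKCD), with bars for the means of 3 arrays and open points where the probe was not detected; each panel has its own scale, which does not start at 0. DDIT4 drops in MDA-MB-468 cells only, and ADM, ANGPTL4 and NDRG1 climb in BT-549 cells.

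DDIT4 had the largest fall of the module in MDA-MB-468 cells. It encodes REDD1, an inhibitor of mTORC1 that low oxygen, energy stress and other stresses induce. Its signals were 11.53, 11.28 and 11.29 with siControl and 10.11, 9.81 and 9.87 with siPRKCD, which is 2.70-fold lower (log2 fold change -1.43, SE 0.11, adjusted p = 2.2e-07). In BT-549 cells the arrays overlapped, at 12.13, 12.24 and 11.998 against 12.33, 12.21 and 12.11 (0.10, 95% interval -0.13 to 0.33, adjusted p = 0.57). The responses differed by 1.53 (SE 0.15, adjusted p = 1.8e-05). NDRG1, a stress-responsive protein induced by low oxygen, rose in BT-549 cells, from 8.48, 8.05 and 7.95 to 9.32, 9.26 and 8.61 (0.90, SE 0.17, adjusted p = 8.5e-04). In MDA-MB-468 cells it was near background, at 7.11, 7.11 and 7.27 with siControl and 6.86, 6.80 and 6.94 with siPRKCD, of which 1 array counted as detected (-0.30, adjusted p = 0.21, or 0.038 with the replicate block). The NDRG1 responses differed by 1.20 (SE 0.23, adjusted p = 0.0038).

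The collagen-modifying P4HA2 fell in both lines, and in BT-549 cells it had the largest fall of the module. In BT-549 cells its signals were 10.71, 10.24 and 10.67 with siControl and 8.82, 8.17 and 9.30 with siPRKCD, which is 3.43-fold lower (log2 fold change -1.78, SE 0.20, adjusted p = 1.8e-05). In MDA-MB-468 cells they were 8.29, 8.01 and 8.16 against 7.22, 7.04 and 7.29 (-0.97, SE 0.20, adjusted p = 0.0024). The groups lay apart in both lines, and the responses did not pass the test of their difference (-0.81, adjusted p = 0.089). A further P4HA2 probe, detected on 4 arrays, gave -0.70 in BT-549 cells and -0.08 in MDA-MB-468 cells, where it did not pass, and by that probe the responses differed by -0.63 (adjusted p over all probes 0.005). The partner isoform P4HA1 did not pass in either line (-0.12 and -0.17). PLOD2 fell in BT-549 cells by 0.36 (adjusted p = 0.025), a call that was lost without siPRKCD array 2 or siControl array 3 of that line (adjusted p 0.1 to 0.11), and 1 of its other probes did not pass (-0.29, adjusted p over all probes 0.16), while by the other the responses differed by -0.60 (0.022). In these cells the summed signal of mesenchymal markers, several of them collagen genes, was also lower with siPRKCD, and its part in the changes of P4HA2 and PLOD2 was not tested.

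The mitophagy receptor BNIP3L fell in MDA-MB-468 cells by 0.29 (SE 0.10, adjusted p = 0.036), and BNIP3 did not pass in either line (0.02 and -0.26). The BNIP3L call was lost without siControl array 1 or 2 or siPRKCD array 2 or 3 of that line (adjusted p 0.071 to 0.14), and a second BNIP3L probe did not pass (-0.34, adjusted p over all probes 0.17). CA12, MXI1, KDM3A, BHLHE40 and ANKRD37 did not pass in either line, with log2 fold changes of -0.58 to 0.23, except that BHLHE40 was lower in MDA-MB-468 cells with the replicate block (-0.27, adjusted p = 0.36 without it and 0.029 with it). CA12 was not detected on any MDA-MB-468 array.

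Of the genes for uptake and phosphorylation of glucose, SLC2A1 and HK2 rose in BT-549 cells. SLC2A1 read 9.16, 9.26 and 9.30 with siControl and 9.91, 9.93 and 9.82 with siPRKCD (log2 fold change 0.65, SE 0.10, adjusted p = 2.5e-04). In MDA-MB-468 cells, where it was higher to begin with, it read 10.79, 10.81 and 11.12 against 11.15, 11.26 and 11.04, which overlap (0.24, adjusted p = 0.094), and the responses did not pass the test of their difference (adjusted p = 0.089). HK2, the hexokinase that cancer cells often induce, rose in BT-549 cells by 0.45 (adjusted p = 0.033) and read -0.14 in MDA-MB-468 cells. The HK2 call was lost without siControl array 2 or 3 or siPRKCD array 2 of BT-549 cells (adjusted p 0.076 to 0.16). A second HK2 probe gave 0.77 in BT-549 cells and -0.36 in MDA-MB-468 cells (adjusted p over all probes 2.7e-04 and 0.039), and by that probe the responses differed by 1.13 (adjusted p 7.5e-04), against 0.59 (adjusted p = 0.081) by the main probe. SLC2A3 and HK1 did not pass in either line.

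At phosphofructokinase, a control point of glycolysis, both module members whose enzymes make its activator rose in at least 1 line by their main probes. PFKFB3 and PFKFB4 make fructose-2,6-bisphosphate, a potent activator of that enzyme, and both are HIF targets. PFKFB3 rose in both lines by its main probe. It read 9.12, 9.0001 and 8.91 with siControl and 9.52, 9.62 and 9.51 with siPRKCD in MDA-MB-468 cells (log2 fold change 0.54, SE 0.12, adjusted p = 0.0042). In BT-549 cells it read 9.95, 10.10 and 10.35 against 10.94, 10.72 and 10.47 (0.58, SE 0.12, adjusted p = 0.0026), and the difference of the responses was 0.04 (95% interval -0.33 to 0.41). A second PFKFB3 probe, detected on 11 arrays, gave 0.05 in MDA-MB-468 cells (adjusted p over all probes 0.8) and 0.36 in BT-549 cells (0.035), so the rise in MDA-MB-468 cells rests on 1 probe. PFKFB4 rose in MDA-MB-468 cells, from 8.36, 8.22 and 7.98 to 9.53, 9.20 and 8.94, or 2.05-fold (1.04, SE 0.16, adjusted p = 2.5e-04). In BT-549 cells it read 8.75, 8.69 and 8.75 against 9.40, 8.75 and 8.86, with 1 siPRKCD array above the rest (0.27, adjusted p = 0.25). The PFKFB4 responses differed by -0.76 (adjusted p = 0.046), a call kept without MDA-MB-468 siControl array 1 or siPRKCD array 3 or BT-549 siPRKCD array 1 and lost without any 1 of the other 9 arrays (adjusted p 0.078 to 0.12).

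Of the phosphofructokinase subunits, PFKP, the platelet type, rose in BT-549 cells, from 10.82, 10.93 and 10.93 to 11.26, 11.25 and 11.20 (log2 fold change 0.34, SE 0.09, adjusted p = 0.0088), and read 10.32, 10.17 and 10.42 against 10.52, 10.55 and 10.47 in MDA-MB-468 cells (0.21, adjusted p = 0.093). PFKL, the liver type, fell in BT-549 cells by 0.38 (SE 0.11, adjusted p = 0.02) and read -0.30 in MDA-MB-468 cells (adjusted p = 0.058, or 0.019 with the replicate block). The PFKL call was lost without siPRKCD array 1 or siControl array 2 or 3 of BT-549 cells (adjusted p 0.055 to 0.081). PFKM, the muscle type, did not pass in either line. With the arrays scaled to a common median in place of quantile normalization, the BT-549 calls of PFKP and PFKFB3 were lost (adjusted p = 0.21 and 0.065).

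Of the steps from aldolase to lactate, PGK1, ALDOC and ENO2 passed in 1 line each. In BT-549 cells PGK1, which makes the first ATP of the pathway, rose by 0.29 (SE 0.09, adjusted p = 0.035), and ALDOC fell by 0.53 (SE 0.17, adjusted p = 0.034) with overlapping arrays. A second PGK1 probe gave 0.06. In MDA-MB-468 cells ENO2, the neuronal enolase, rose by 0.34 from near background (SE 0.11, adjusted p = 0.033), with its probe detected on 1 siControl array and on 3 siPRKCD arrays. In BT-549 cells ENO2 read -0.26 (adjusted p = 0.10), and the responses differed by -0.60 (SE 0.16, adjusted p = 0.022). ALDOA, TPI1, GAPDH, PGAM1, ENO1, PKM, LDHA and LDHB did not pass in either line, with log2 fold changes between -0.33 and 0.23, except that PGAM1 was lower in MDA-MB-468 cells with the replicate block (-0.33, adjusted p = 0.032). PDK3 did not pass in either line by its main probe (-0.30 and -0.23), while a second probe passed in both (-0.30 and -0.29, adjusted p over all probes 0.045 and 0.047). The PGK1 call was lost without siControl array 1 or 2 or siPRKCD array 1 or 3 (adjusted p 0.074 to 0.15), and that of ALDOC without siControl array 1 or 2 or siPRKCD array 2 (0.099 to 0.17), all of BT-549 cells. The ENO2 rise was lost without siPRKCD array 1 or 2 or siControl array 2 or 3 of MDA-MB-468 cells (0.056 to 0.13), and its difference between lines without BT-549 siControl array 1 or MDA-MB-468 siPRKCD array 2 (0.059 to 0.061).

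Responses of 6 of the 42 members differed between the lines, or 14.3%, where 10.8% of all genes differed (5.15% higher and 5.62% lower in BT-549 minus MDA-MB-468 cells). ADM, ANGPTL4, NDRG1 and DDIT4, all outside glycolysis, had the more positive response in BT-549 cells by their main probes, and the glycolysis genes PFKFB4 and ENO2 the more positive response in MDA-MB-468 cells. For ANGPTL4 the main probe was at background in MDA-MB-468 cells, and the probe detected on all 12 arrays gave a difference of 0.51 that did not pass (adjusted p over all probes 0.06). By main probes, 0 of the other HIF targets differed the other way (2 at an unadjusted p under 0.05 in limma). Of the glycolysis genes 0 were more positive in BT-549 cells by main probes (2 at an unadjusted p under 0.05). Other probes broke this split. A second HK2 probe differed by 1.13 (adjusted p over all probes 7.5e-04), a P4HA2 probe detected on 4 arrays by -0.63 (0.005) and a PLOD2 probe by -0.60 (0.022).

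**Figure D4:**
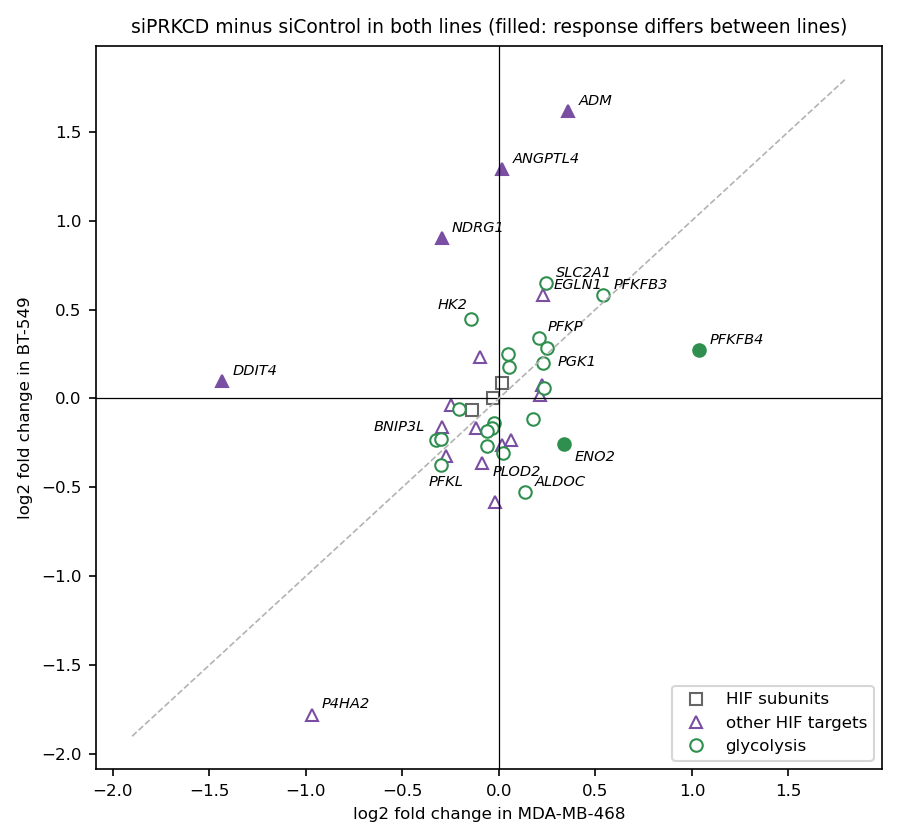
Log2 fold change, siPRKCD minus siControl, of the 42 measured members in MDA-MB-468 (horizontal) against BT-549 (vertical), with squares for HIF subunits, triangles for other HIF targets and circles for glycolysis genes; filled symbols mark responses that differed between the lines, and the dashed line marks equal responses. ADM, ANGPTL4, NDRG1 and DDIT4, each read by its main probe, lie above the dashed line, PFKFB4 and ENO2 below it, and P4HA2 lies far down on both axes.

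Further genes of both pathways were read from 2 lists written beside the module. Of 24 measured genes of glucose and pyruvate metabolism, 0 rose and 6 fell in MDA-MB-468 cells (0 and 7 at an unadjusted p under 0.05 in limma), and 3 rose and 3 fell in BT-549 cells. In each line 25% of this list thus passed, close to the 26.1% and 26.4% of all genes. SLC2A8, a glucose transporter of inner membranes, fell in both lines (-0.51 and -0.93, adjusted p = 0.022 and 3.6e-04). BPGM, which makes 2,3-bisphosphoglycerate, fell in MDA-MB-468 cells by 0.49 and rose in BT-549 cells by 0.43 (adjusted p = 0.0036 and 0.008), and the responses differed by 0.92 (SE 0.15, adjusted p = 0.0012). Of 42 measured further genes of the HIF pathway, 2 rose and 7 fell in MDA-MB-468 cells, and 4 rose and 10 fell in BT-549 cells, or 21.4% and 33.3% of the list against the same 26.1% and 26.4%. In both lines TMEM45A (-1.30 and -0.55), CCNG2, a cyclin G that slows the cell cycle (-0.53 and -0.60), EDN1, the vasoconstrictor endothelin (-0.49 and -0.64), and HSP90AA1, a chaperone that stabilises HIF-1α (-0.81 and -0.42), fell, and ZNF395 rose (0.37 and 0.48), where 5.67% of all genes fell and 4.56% rose in both. The TMEM45A responses differed by 0.75 (adjusted p = 0.004).

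Some of these calls rested on single arrays or on the processing. In MDA-MB-468 cells the SLC2A8 call was lost without siControl array 1 or 2 or siPRKCD array 1 or 3 (adjusted p 0.051 to 0.082), and that of EDN1 without siControl array 1 or 2 or siPRKCD array 2 (0.054 to 0.071). The ZNF395 call in MDA-MB-468 cells was lost without siPRKCD array 1 or 2, siControl array 2 or 3 or BT-549 siControl array 1 (0.051 to 0.18), and in BT-549 cells without siControl array 2 or siPRKCD array 3 (0.054 to 0.063). That of HSP90AA1 in BT-549 cells was lost without any 1 of its siPRKCD arrays or siControl array 3 (0.059 to 0.12). Scaling to a common median ended the calls of BPGM (0.23) and ZNF395 (0.07) in BT-549 cells and of SLC2A8 in MDA-MB-468 cells (0.076). It or the mean of a gene's probes ended that of BPGM in MDA-MB-468 cells (0.069 to 0.1). It or neqc background correction ended those of HSP90AA1 in BT-549 cells (0.066 to 0.16) and EDN1 in MDA-MB-468 cells (0.095 to 0.17). These or no filter on dim probes ended that of ZNF395 in MDA-MB-468 cells (0.07 to 0.082).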

How the data were processed

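Total RNA was amplified, biotin-labelled and hybridized to Illumina Human HT-12 v4 arrays by the authors. They deposited bead signal intensities before normalization, a detection p-value per probe against negative control beads, and signal intensities after their own (quantal) normalization. The scanner software is not given in the sources used here. Unnormalized intensities, quantile-normalized across the 12 arrays and put on the log2 scale with no background correction, differed from the deposited normalized table by at most 0.0083. Of 47323 probes, 30113 had a single gene symbol, 8 several and 17202 none. Probes detected at p under 0.01 on at least 3 arrays were kept (19439, 15378 with a single gene), and the kept probe with the highest mean stood for its gene.

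One model with 4 group means was fitted over the 12 arrays with limma 3.58.1 in R 4.3.3 (8 residual and 7.64 prior degrees of freedom), with Benjamini-Hochberg adjustment over 11459 genes. The fit was also run on simulated data with independent noise on each array. That setting leaves out the shared deviation of same-numbered arrays given below. The number of arrays limits the precision. No source says how the cultures of replicates 1 to 3 were separated, so p-values reflect only the spread between the arrays at hand. In MDA-MB-468 cells same-numbered arrays deviated together (r 0.287 to 0.492), above all differently numbered ones (-0.392 to 0.171). In BT-549 cells same-numbered arrays gave 0.010 to 0.281 and differently numbered ones -0.334 to 0.22, which overlap. The numbers were therefore taken to pair the samples in MDA-MB-468 cells only, though no source states it. The main fit had no block, and results with the block are named as such.

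The members and lists were chosen with earlier results of these data known. All measured members are accounted for. Named with values are those called in a knockdown comparison or in its difference between the lines (the 10 with the smallest adjusted p by array), the 5 glycolysis and 5 other members with the largest difference between the lines, and listed pathway genes called in both lines. Alternatives were median centring, neqc background correction, the authors' table, probes detected on all 12 arrays, no filter, the mean of a gene's probes, each line alone, an intensity trend, a replicate block and leaving out each array. Floors for undetected probes are the lowest detected signal of each array (log2 6.87 to 6.99). Promoter windows are credited to RefSeq (GRCh38.p14).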

Additional observations from a re-analysis of the deposited data

Results flagged for a closer look

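Responses to PKCδ siRNA that differed between the lines were picked out, as the difference of log2 fold changes, BT-549 minus MDA-MB-468 (limma, Benjamini-Hochberg over all genes). Outside glycolysis these were DDIT4 (1.53, adjusted p = 1.8e-05), ANGPTL4 (1.27, adjusted p = 1.1e-04), ADM (1.26, adjusted p = 3e-04) and NDRG1 (1.20, adjusted p = 0.0038). The main ANGPTL4 probe was not detected on any MDA-MB-468 array (the probe detected on all 12 arrays gave 0.51, adjusted p over all probes 0.06) and that of NDRG1 on 1 MDA-MB-468 siPRKCD array. With median centring the differences of BPGM and TMEM45A were lost (adjusted p = 0.086 and 0.18). Within glycolysis ENO2 (-0.60, adjusted p = 0.022) and PFKFB4 (-0.76, adjusted p = 0.046) differed the other way. Of the further pathway genes BPGM (0.92, adjusted p = 0.0012) and TMEM45A (0.75, adjusted p = 0.004) were picked out. By main probes and without the replicate block, BPGM alone among the genes named passed in both lines in opposite directions (0.593% of all genes did). A second HK2 probe did so too, at 0.77 in BT-549 cells and -0.36 in MDA-MB-468 cells (adjusted p over all probes 2.7e-04 and 0.039). NDRG1, higher in BT-549 cells, passed as lower in MDA-MB-468 cells with the replicate block.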

How the results depend on the processing

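With median centring in place of quantile normalization the members called fell from 7 to 4 in MDA-MB-468 cells (2 higher, 2 lower). The share of all genes there fell from 26.1% to 12.7%. In BT-549 cells the members called fell from 13 to 8 (5 higher, 3 lower), and the share of all genes from 26.4% to 15.6%. The responses of members that differed between lines were 4 higher and 1 lower, where 4.45% of all genes differed (168 higher, 342 lower). Over all genes the BT-549 calls were 390 higher and 1398 lower in place of 1325 and 1705. With probes detected on all 12 arrays 2 members differed between lines in place of 6, and 7.77% of 7932 genes did. NDRG1 and ENO2, detected on 10 arrays each, were not tested there. The difference of PFKFB4 was lost, as was that of ANGPTL4, read from another probe (adjusted p = 0.066). The replicate block, a pairing by number, raised the MDA-MB-468 count to 11 (4 higher, 7 lower; 32.2% of all genes), with NDRG1, BHLHE40, PFKL and PGAM1 added. It changed no other MDA-MB-468 call. In BT-549 cells, whose numbers are not taken to pair arrays, it gave 16 (32.6% of all genes). The PDK3 difference between the lines turned from -0.49 to 0.098 with the mean of its probes, and that of ALDOA was lost without BT-549 siControl array 2 or MDA-MB-468 siControl array 3 (adjusted p 0.055 to 0.082) and that of LDHA without MDA-MB-468 siControl array 2 or 3 (0.067 to 0.071) and with neqc (0.056). Median centring or neqc, often both, also ended the calls of ADM (adjusted p 0.07 to 0.16) and BNIP3L (0.058 to 0.28) in MDA-MB-468 cells, of HK2 (0.058 to 0.32), PGK1 (0.054 to 0.29), PLOD2 (0.073 to 0.11) and ALDOC (0.076 to 0.088) in BT-549 cells, and of the PFKFB4 difference (0.05 to 0.12), ranges that cover every setting losing the call, and median centring alone that of ENO2 in MDA-MB-468 cells (0.11). Leaving out each array in turn gave 4 members (without MDA-MB-468 siControl array 2, 20.2% of all genes) to 9 (without array 3, 22.7%) in MDA-MB-468 cells. It gave 9 to 13 in BT-549 cells, 4 to 7 for the difference of responses and 32 to 34 between the lines. The share of all genes that passed moved as well. It was 18.9% to 27.7% in MDA-MB-468 cells, 18.2% to 28.2% in BT-549 cells, 7.52% to 10.5% for the difference of responses and 57.3% to 63.6% between the lines. The calls of ADM, P4HA2, ANGPTL4, NDRG1, EGLN1 and SLC2A1 in BT-549 cells and of DDIT4, P4HA2, PFKFB3 and PFKFB4 in MDA-MB-468 cells were kept under every alternative that tested them. With probes detected on all 12 arrays NDRG1 was not tested, and ANGPTL4 was read from another probe. Signal near background limits ARNT, MXI1, EGLN3, ANKRD37, NDRG1 and ENO2.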
